A study of Mus musculus with 12 samples.

Results

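CD4+ T cells of mice without γδ T cells were compared between a methionine- and choline-deficient (MCD) diet and a control diet. The 4 libraries labelled as CD4+ T cells, gammadeltaTCR-/- genotype and either diet were taken from a set of 12, with 2 libraries on the MCD diet and 2 on the control diet. Mice were 7 weeks old when the diets began and ate them for 6 weeks, and cells were sorted by flow cytometry into lysis buffer before RNA sequencing. Both knockout groups carry the deletion and their labels tell them apart by diet, and any other difference between them cannot be told apart from it. Wild-type C57BL/6 CD4+ libraries, 2 from MCD-fed and 2 from control-fed mice, were used beside them. No tissue is given, nor whether replicates came from separate mice, so p-values cover only the spread between these libraries.

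A diet without methionine and choline blocks the export of fat from the mouse liver and is widely used to induce steatohepatitis, a fatty liver with inflammation. CD4+ T cells recognise peptides through an αβ receptor. Naive cells keep the transcription factors Tcf7, Lef1 and Satb1 and the homing receptor Ccr7, while cells that have met antigen switch on immediate transcription factors, then cytokines, chemokines, adhesion molecules and inhibitory receptors. γδ T cells are an early source of cytokines in inflamed tissue, and the knockout comparison asks what the diet does to CD4+ T cells when they are missing.

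The libraries bore their cell type label. Cd4 read 958 and 1030 CPM (counts-per-million) in knockout MCD libraries and 953 and 1448 CPM in knockout control libraries. Cd3e, part of the receptor's signalling complex, read 917 and 703 CPM in knockout MCD and 882 and 1107 CPM in knockout control libraries, and Trac, the α-chain constant gene, read 391 and 348 CPM in knockout MCD against 543 and 655 CPM in knockout control libraries. None of these passed the test between diets. Total counts ran between 18320601 and 21759167 in the 4 knockout libraries. Mitochondrial genes took 43.9% and 41.1% of counts in knockout MCD libraries and 52.7% and 51.1% in knockout control libraries, beside 40.8% to 43.9% in the 4 wild-type CD4+ libraries. The knockout control libraries thus stood apart from the other CD4+ libraries on this measure, and the part of this in the results below was tested only by leaving mitochondrial genes out.

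In MCD-fed knockout cells 24 of 24 genes of naive and resting T cells had lower levels than in control-fed knockout cells. So did 83 of 84 ribosomal protein genes, while 22 of 24 transcription factors induced by the T cell receptor had higher levels. The lists were written with earlier results of these data known, so their counts are descriptions and not tests. Few single genes passed the test. With edgeR's quasi-likelihood test on all 12 libraries, 6 of 16218 genes passed an adjusted p of 0.05 (0.037% of genes tested), 5 higher (0.0308%) and 1 lower (0.00617%). At an unadjusted p under 0.05, 619 were higher (3.82%) and 363 lower (2.24%), where 811 in all are given by chance. A further fit on the 8 CD4+ libraries alone, which keeps the more variable γδ libraries out of the shared spread, called 89 of 15288 genes (0.582%), 55 higher (0.36%) and 34 lower (0.222%), and 5 of the 6 genes were among them. Both counts rested on single libraries. Leaving out knockout MCD replicate 1 gave 2 genes in the fit of 12 libraries, leaving out knockout MCD replicate 2 or either knockout control library gave 0, and leaving out γδ MCD replicate 2 or 4 gave 41 or 42. In the fit of 8 libraries the count was 7 without knockout MCD replicate 1, 12 without knockout MCD replicate 2, and 40 and 34 without knockout control replicates 1 and 2. In these bulk libraries, fewer cells of a type and less RNA per cell cannot be told apart. Where wild-type values are not printed for a gene, the difference between diets does not show which knockout group departed from wild-type cells.

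Rgs1, which dampens signalling by chemokine receptors (chr1:144242296-144249242, minus strand, GRCm38), rose on the MCD diet. It read 486 and 485 CPM in knockout MCD libraries and 76.9 and 70.5 CPM in knockout control libraries, a log2 fold change of 2.72 (SE 0.30, edgeR adjusted p = 0.00667, and 0.000315 in the fit of 8 libraries). In wild-type cells it read 186 and 257 CPM with MCD feeding and 145 and 155 CPM with control feeding. The wild-type libraries lay between the knockout groups: Rgs1 was lowest in knockout control cells and highest in knockout MCD cells.

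Maf, a transcription factor that drives IL-10 and IL-21 in T cells (chr8:115682942-115707794, minus strand), rose as well. It read 261 and 270 CPM in knockout MCD and 43.9 and 36.7 CPM in knockout control libraries (log2 fold change 2.72, SE 0.34, edgeR adjusted p = 0.0154), and 101 and 141 CPM in wild-type MCD and 77.8 and 78.2 CPM in wild-type control libraries. Ccl5, the chemokine RANTES (chr11:83525778-83530518, minus strand), read 128 and 166 CPM in knockout MCD and 25.5 and 31.9 CPM in knockout control libraries (log2 fold change 2.35, SE 0.35, edgeR adjusted p = 0.0356). Its wild-type values were 67.3 and 68.7 CPM with MCD feeding and 27.6 and 31.4 CPM with control feeding, so the wild-type control values lay within the range of the knockout control values, and the knockout MCD libraries were the highest. Of the 89 genes called in the 8 CD4+ libraries, Maf, Rgs1, mt-Rnr2 and Lilr4b passed in all 8 refits that each left out 1 library.

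Ahnak, a very large scaffold protein under the cell membrane that supports calcium entry in T cells, rose to 1247 and 1496 CPM in knockout MCD libraries, against 468 and 567 CPM in knockout control libraries (log2 fold change 1.41, SE 0.21, edgeR adjusted p = 0.0356). It read 1486 and 1354 CPM in wild-type MCD and 823 and 684 CPM in wild-type control libraries, without overlap between diets in either genotype. Il1rn, the interleukin-1 receptor antagonist, had 236 counts in the knockout MCD libraries and 1 count in the knockout control libraries, a ratio of 224 (exact 95% counting interval 39.9 to 8901; edgeR adjusted p = 0.0356). Its CPM was uneven, at 1.52 in knockout MCD replicate 1 and 9.34 in replicate 2, and it did not pass in the fit of 8 libraries (adjusted p = 0.194). The 1 gene that fell was mt-Rnr2, the large mitochondrial ribosomal RNA, with 212184 and 199932 CPM in knockout MCD libraries and 320251 and 298387 CPM in knockout control libraries (log2 fold change -0.59, SE 0.08, edgeR adjusted p = 0.0341). Wild-type libraries had 186588 to 205597 CPM, so the knockout control libraries were the high ones. With library-size scaling its log2 fold change was -0.28, in a table whose median gene was at 0.32. With mitochondrial genes left out of the table and of the library sizes, 7 genes were called and 5 of the 6 were among them.

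The tools differed over these 6 genes. DESeq2 called 5 of them among its 266 genes and missed mt-Rnr2 (adjusted p = 0.338). The edgeR fit of the compared groups alone kept 3 of the 6. Limma-voom kept Rgs1 and Maf among its 19 genes, and gave adjusted p = 0.0882 for Ccl5, 0.14 for Ahnak, 0.254 for Il1rn and 0.0751 for mt-Rnr2.

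**Figure D1:**
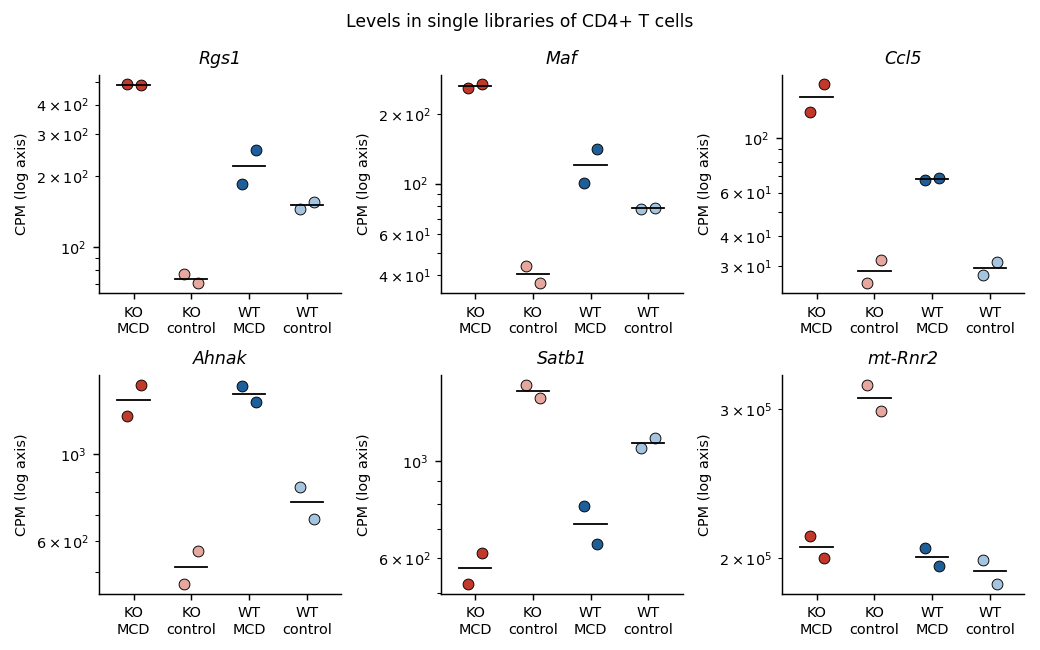
Levels of 6 genes in single libraries of CD4+ T cells, in CPM on a log axis, with points for libraries and a bar for the mean of the 2 libraries in each group. In Rgs1 and Maf the knockout MCD libraries are the highest and the knockout control libraries the lowest of the 8, and in mt-Rnr2 the knockout control libraries stand above the other 6.

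The start sites of 2 of the 5 genes that rose were in the RefSeq promoter table (GRCm38.p6, 250 bases before to 50 after the start), and they are printed to show the letters that activation-linked factors could read. Rgs1, Maf and Ccl5 are named only. Capitals mark matches, on either strand, to the AP-1 site TGANTCA, the CRE TGACGTCA, the NFAT core GGAAAA, the kB site (GGG and CC with 5 bases of any kind between) and the Maf element TGCTGA, with overlapping matches run together. The first is the promoter of Ahnak (chr19:8989034-8989333, plus strand) and the second is the first of the promoters listed for Il1rn (chr2:24336610-24336909, plus strand).
Ahnak: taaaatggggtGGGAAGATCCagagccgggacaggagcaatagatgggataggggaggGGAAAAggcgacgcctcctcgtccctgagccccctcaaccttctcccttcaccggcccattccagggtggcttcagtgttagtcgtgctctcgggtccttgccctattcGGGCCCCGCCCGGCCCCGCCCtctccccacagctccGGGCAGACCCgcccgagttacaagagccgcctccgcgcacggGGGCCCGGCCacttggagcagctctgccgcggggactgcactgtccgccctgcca
Il1rn: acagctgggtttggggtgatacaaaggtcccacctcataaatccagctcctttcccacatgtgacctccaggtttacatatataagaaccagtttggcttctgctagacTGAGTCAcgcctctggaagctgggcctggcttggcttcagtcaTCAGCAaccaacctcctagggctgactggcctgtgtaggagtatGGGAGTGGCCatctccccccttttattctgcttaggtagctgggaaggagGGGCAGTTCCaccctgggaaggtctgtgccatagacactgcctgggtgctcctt
The Il1rn promoter held an AP-1 match, TGAGTCA, 141 bases before the start, a motif present in 5.21% of 12867 promoters of tested genes. Both held kB matches, which 65.2% of all promoters have, and Ahnak held an NFAT core, which 21% have. Promoters 2 and 3 listed for Il1rn, not printed here, each held an NFAT core and no AP-1 match. Maf elements were in 16% and CREs in 3% of promoters. These matches describe letters in a window and do not show that a factor was bound.

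Transcription factors induced by the T cell receptor, early and later ones together, leaned upwards. Of 24 tested, 22 had a higher and 2 a lower level in knockout MCD cells (51% and 47.1% of all genes did), with a median log2 fold change of 1.38 (0.89 to 1.68 over the 25 alternative settings) against 0.03 over all genes tested; 14 were higher without overlap between libraries, which 20.8% of all genes were. None passed in the fit of 12 libraries, and Bhlhe40, which holds back IL-10 and favours inflammatory cytokines, passed in the fit of 8 (161 and 89.8 CPM in knockout MCD, 19.3 and 25.7 CPM in knockout control; adjusted p = 0.0125). Egr2, which restrains T cell responses, read 22.3 and 25.2 CPM in knockout MCD against 0.731 and 3.08 CPM in knockout control libraries, and Nr4a1, a marker of recent receptor signalling, 18.9 and 12.9 CPM in knockout MCD against 2.93 and 1.01 CPM in knockout control libraries. Neither of these passed in either fit. Wild-type cells had a median of 0.11 for the same list. Bhlhe40 read 127 and 83.0 CPM in wild-type MCD and 85.6 and 63.1 CPM in wild-type control libraries. Its lowest levels were thus in the knockout control libraries. Egr2 read 16.2 and 20.4 CPM in wild-type MCD and 5.02 and 1.47 CPM in wild-type control libraries.

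Among 33 genes of receptor signalling and its brakes, 20 were higher and 13 lower, with a median of 0.10 (0.068 to 0.40 over the alternatives). Rgs1 was the only one past the test in 12 libraries, and Ptpn22, a phosphatase that limits receptor signalling, passed in the fit of 8, at 444 and 409 CPM in knockout MCD and 151 and 144 CPM in knockout control libraries (adjusted p = 0.00976). The receptor complex itself had 6 higher and 14 lower of 20 genes (median -0.28, or 0.02 with library-size scaling). Its only call, in the fit of 8, was Thy1, a surface glycoprotein of T cells, which was lower at 256 and 150 CPM in knockout MCD against 682 and 405 CPM in knockout control libraries (adjusted p = 0.0481).

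Lineage transcription factors were higher in 17 of 23, with a median of 0.99 that ran from 0.39 on log2(FPKM + 1) to 1.30 with library-size scaling. Of these, 13 were higher without overlap, beside 20.8% of all genes. Besides Maf, Prdm1, which encodes Blimp-1 and drives effector and residency programmes, passed in the fit of 8 libraries with 155 and 89.5 CPM in knockout MCD and 11.5 and 23.1 CPM in knockout control libraries (adjusted p = 0.0301). Rora, known in type 17 and type 2 cells, passed there too, with 232 and 184 CPM in knockout MCD against 89.9 and 62.5 CPM in knockout control libraries (adjusted p = 0.0418). In wild-type cells Rora read 205 and 151 CPM with MCD feeding and 150 and 168 CPM with control feeding. Its knockout control libraries were thus the low ones. Prdm1 read 40.8 and 55.5 CPM in wild-type MCD and 25.9 and 57.5 CPM in wild-type control libraries, between the knockout groups. The master factors of the helper classes, chosen after their values were seen, showed no shared shift. Tbx21 (type 1) read 19.3 and 8.19 CPM in knockout MCD and 7.51 and 12.7 CPM in knockout control libraries, Gata3 (type 2) 45.6 and 41.4 CPM in knockout MCD against 60.6 and 45.4 CPM in knockout control libraries, and Foxp3 (regulatory) 58.0 and 57.9 CPM in knockout MCD against 52.5 and 66.5 CPM in knockout control libraries.

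Chemokine ligands included some of the widest differences, in genes that knockout control cells hardly expressed. Of 14 listed, 12 passed the filter on low counts and all 12 read higher in knockout MCD cells, but 7 of them had at most 3 counts in the knockout control libraries together and could pass only through libraries where they were higher, so the count is given as a description. Their median log2 fold change was 2.55, and it ran from 0.49 on log2(FPKM + 1) to 4.12 with DESeq2. Ccl3, which attracts inflammatory cells, read 62.0 and 96.4 CPM in knockout MCD libraries and 0.244 and 0 CPM in knockout control libraries, and passed in the fit of 8 (adjusted p = 0.00932). Ccl4, its close relative, read 11.1 and 13.4 CPM in knockout MCD against 0 and 0.0481 CPM in knockout control libraries, with adjusted p = 0.052 there. Wild-type cells had 5.11 and 8.41 CPM of Ccl3 with MCD feeding and 1.52 and 8.58 CPM with control feeding, so its high level was seen in both knockout MCD libraries and in no wild-type library. The list's wild-type median was 1.45.

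Chemokine receptors split, with 12 higher and 8 lower of 20 (median 0.49, or -0.03 without knockout MCD replicate 1). Ccr7, which brings naive cells into lymph nodes, was lower, at 62.2 and 87.0 CPM in knockout MCD against 238 and 241 CPM in knockout control libraries (adjusted p = 0.0329 in the fit of 8). In wild-type cells Ccr7 read 84.2 and 48.5 CPM with MCD feeding and 91.5 and 93.2 CPM with control feeding. The knockout control libraries were thus the high ones. S1pr1, the exit receptor of lymphoid tissue, did not pass. It read 120 and 131 CPM in knockout MCD against 257 and 232 CPM in knockout control libraries.

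Cytokine genes were higher in 15 of 25 tested of 30 (median 0.93, 0.38 to 1.49 over the alternatives, or 0.40 with genes at 0 set to the floor of 3 counts per library). Il21, which helps B cells and CD8 T cells, read 24.5 and 27.2 CPM in knockout MCD libraries and 0 in both knockout control libraries, at least 178-fold higher (adjusted p = 0.00976 in the fit of 8, 0.169 in that of 12). Il10, an anti-inflammatory cytokine that Maf controls, read 27.1 and 44.8 CPM in knockout MCD against 0.244 and 0.481 CPM in knockout control libraries (adjusted p = 0.0217 in the fit of 8). Tnfsf10, the death ligand TRAIL, read 153 and 100 CPM in knockout MCD against 43.5 and 37.5 CPM in knockout control libraries (adjusted p = 0.0481 in that fit). Ifng, the type 1 cytokine, had closer values, at 28.8 and 48.2 CPM in knockout MCD against 7.61 and 22.98 CPM in knockout control libraries, and did not pass in either fit. The wild-type median of the list was -0.08. Tnfsf10 read 79.7 and 76.0 CPM in wild-type MCD and 118 and 75.7 CPM in wild-type control libraries. Its knockout control libraries were thus the low ones. Il10 read 2.60 and 6.42 CPM in wild-type MCD and 1.47 and 0.434 CPM in wild-type control libraries, so its knockout MCD libraries were the high ones.

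Spp1, which encodes osteopontin, was high in 1 of the 4 CD4+ groups. It read 34.5 and 34.7 CPM in the knockout MCD libraries, 0 in both knockout control libraries, 0.491 and 1.25 CPM in wild-type MCD and 0 in both wild-type control libraries. It was at least 238-fold higher in knockout MCD cells than in knockout control cells (adjusted p = 0.00976 in the fit of 8 libraries, 0.134 in that of 12). Bile duct cells also express Spp1, and the 10 markers of that list summed to 35.3 and 36.6 CPM in knockout MCD libraries and to 0.0975 and 0.673 CPM in knockout control libraries, nearly all of it Spp1 in the MCD libraries. Besides Spp1, Epcam was the only one that passed the filter, at 0.737 and 1.93 CPM in knockout MCD against 0.0488 and 0.673 CPM in knockout control libraries, without overlap. Krt7 and Krt19, which define these cells, read 0 in all 4 knockout libraries. The part of bile duct RNA in the level of Spp1 was not tested.

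Inhibitory and co-stimulatory receptors were higher in 19 of 27 (median 1.11, 0.90 to 1.89 over the alternatives). Without overlap 18 were higher and 3 lower, beside 20.8% and 18.1% of all genes. Tigit, an inhibitory receptor, read 119 and 169 CPM in knockout MCD and 19.7 and 21.0 CPM in knockout control libraries, and Ctla4, which takes up the ligands of a co-stimulatory receptor, read 249 and 300 CPM in knockout MCD against 74.3 and 78.9 CPM in knockout control libraries. Both passed in the fit of 8 libraries (adjusted p = 0.00976 and 0.0125) and in neither case in that of 12 (both adjusted p = 0.787). Cd38, an ectoenzyme of activated cells, passed in the fit of 8 as well, with 48.2 and 74.3 CPM in knockout MCD against 13.4 and 6.78 CPM in knockout control libraries (adjusted p = 0.0319). Pdcd1, which encodes PD-1, read 19.95 and 25.1 CPM in knockout MCD against 0 and 1.44 CPM in knockout control libraries without passing. Regulatory T cell genes were higher in 15 of 18 (median 0.997, or 0.20 without knockout MCD replicate 1), led by Il10 and Ctla4, which other activated cells express too, while Foxp3 overlapped between diets.

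The inhibitory immunoglobulin-like receptors Lilr4b and Lilrb4a are close copies, so reads may be split between them. Lilr4b read 152 and 192 CPM in knockout MCD libraries and 10.3 and 4.66 CPM in knockout control libraries (log2 fold change 4.50, edgeR adjusted p = 0.0773 in 12 libraries and 0.00358 in 8). Lilrb4a read 132 and 108 CPM in knockout MCD against 6.14 and 20.8 CPM in knockout control libraries (adjusted p = 0.0909 and 0.0266). In wild-type cells Lilr4b read 46.9 and 112 CPM with MCD feeding and 17.7 and 20.4 CPM with control feeding, again without overlap.

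Genes of residency and adhesion were higher in 19 and lower in 7 of 26 (median 0.35, 0.28 to 0.65 over the alternatives), with Rgs1 and Ahnak past the test in 12 libraries. Itga1 and Itga2, the collagen-binding α1 and α2 integrins, passed in the fit of 8. Itga1 read 59.9 and 60.5 CPM in knockout MCD and 5.80 and 14.0 CPM in knockout control libraries (adjusted p = 0.0266), and Itga2 38.8 and 48.9 CPM in knockout MCD against 6.73 and 7.31 CPM in knockout control libraries (adjusted p = 0.0481). The leukocyte integrin chain Itga4 read 1078 and 1299 CPM in knockout MCD against 665 and 705 CPM in knockout control libraries and did not pass. In wild-type cells Itga1 read 76.8 and 71.7 CPM with MCD feeding and 130 and 71.9 CPM with control feeding, so it was the knockout control libraries that were low.

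**Figure D2:**
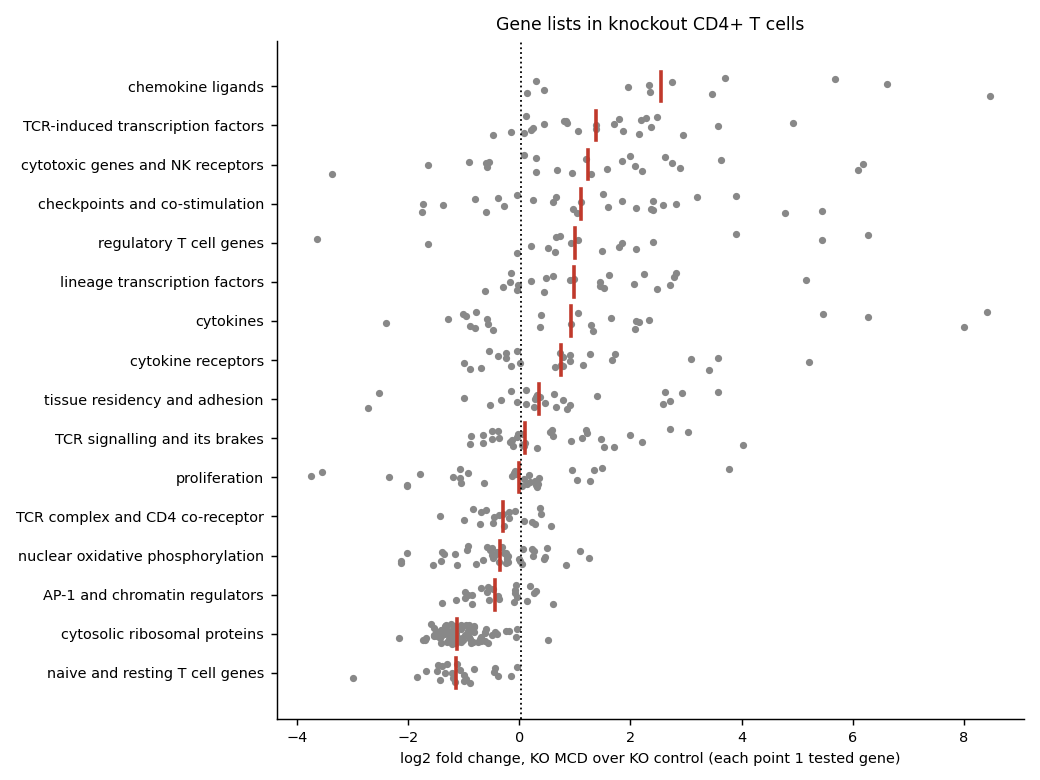
Log2 fold change of each tested gene of 16 lists in knockout CD4+ T cells, MCD over control, with a point per gene, a red bar for the list's median and a dotted line for the median of all genes tested. Chemokine ligands have a median of 2.55, and ribosomal protein and naive T cell genes have medians of -1.12 and -1.14.

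Cytotoxic genes and natural killer receptors were higher in 18 of 24 (median 1.24, or 0.47 without knockout MCD replicate 1), but the 2 knockout MCD libraries differed in them. The list summed to 541 and 335 CPM in knockout MCD libraries and to 173 and 239 CPM in knockout control libraries. Wild-type libraries had sums of 405 to 583 CPM (median log2 fold change -0.22), so the knockout control libraries were the lowest. Gzmk, a granzyme of memory cells, read 39.5 and 59.6 CPM in knockout MCD and 0.439 and 0.817 CPM in knockout control libraries, and Klri2, a lectin-like receptor, read 4.84 and 9.66 CPM in knockout MCD libraries and 0 in both knockout control libraries, at least 49.9-fold higher. Both passed in the fit of 8 (adjusted p = 0.0301 and 0.0376). Of the list, 11 were higher without overlap, which 20.8% of all genes were, and 1 was lower (18.1% of all genes). That 1 was Gzma, another granzyme, at 0.138 and 1.06 CPM in knockout MCD against 7.61 and 6.54 CPM in knockout control libraries. Klrb1c, which encodes NK1.1, read 55.1 CPM in knockout MCD replicate 1 and 0.828 CPM in replicate 2, against 5.75 and 6.20 CPM in knockout control libraries. Zbtb16, the factor of innate-like T cells, read 15.9 and 0 CPM in the 2 knockout MCD libraries and 3.66 and 2.02 CPM in knockout control libraries. Tcrg-C1, Klrc1 and Ccr2 showed the same order, at 39.6, 20.3 and 124 CPM in replicate 1 and 1.20, 2.35 and 34.3 CPM in replicate 2. In the knockout control libraries Tcrg-C1, Klrc1 and Ccr2 read 5.85 and 5.10 CPM, 2.49 and 2.74 CPM, and 38.03 and 37.2 CPM, so replicate 1 of the MCD diet was the high library.

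The 11 markers of CD8, natural killer T and γδ T cells summed to 161.7 and 27.0 CPM in knockout MCD libraries and to 29.4 and 45.0 CPM in knockout control libraries, beside 116 to 415 CPM in wild-type libraries. Of these, 8 were higher and 3 lower with the MCD diet, with a median log2 fold change of 1.38, or -1.58 without knockout MCD replicate 1. Cd8a, the defining marker of CD8 T cells, read 0.875 and 1.93 CPM in knockout MCD and 0.0488 and 2.07 CPM in knockout control libraries. The part of innate-like cells in the levels of the cytotoxic genes was not tested.

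**Figure D3:**
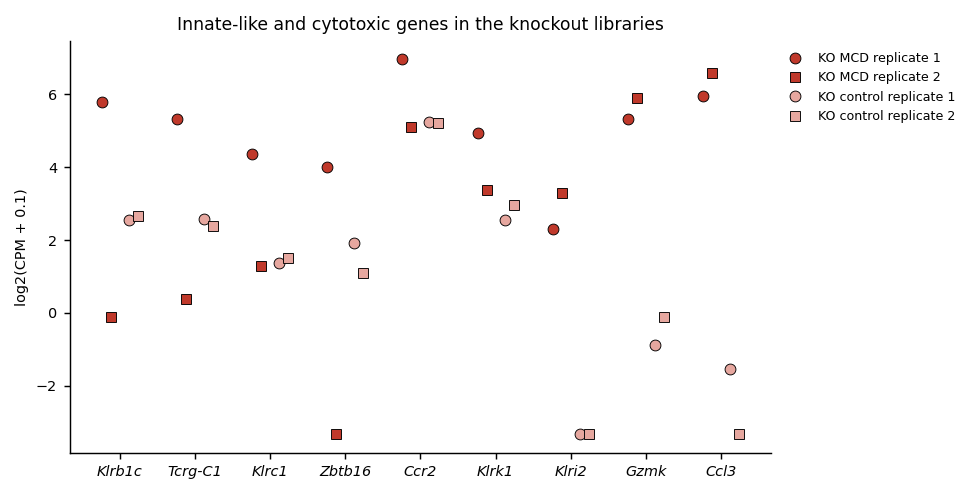
Levels of 9 innate-like and cytotoxic genes in the 4 knockout libraries, as log2(CPM + 0.1), with circles for replicate 1 and squares for replicate 2. Klrb1c, Tcrg-C1, Klrc1, Zbtb16 and Ccr2 are highest in knockout MCD replicate 1, and Klri2, Gzmk and Ccl3 are high in both knockout MCD libraries.

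The genes of naive and resting T cells were lower in 24 of 24, with a median log2 fold change of -1.14, and 22 did not overlap between diets, against 18.1% of all genes in that direction. No gene of this list passed in the fit of 12 libraries and 7 passed in that of 8, where 0.222% of all genes were called lower. Satb1, a genome organiser that keeps T cells quiescent, read 526 and 617 CPM in knockout MCD libraries and 1492 and 1393 CPM in knockout control libraries (log2 fold change -1.34, edgeR adjusted p = 0.0909 in 12 libraries and 0.00507 in 8). Tcf7, which encodes TCF-1, read 379 and 473 CPM in knockout MCD against 855 and 1086 CPM in knockout control libraries (adjusted p = 0.0203 in 8), and its partner Lef1 173 and 212 CPM in knockout MCD against 563 and 447 CPM in knockout control libraries (adjusted p = 0.0125). Klf3, Add3 and Ssh2 were the others past that fit besides Ccr7.

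The sum of this list was set apart by the control group. It was 5434 and 6006 CPM in knockout MCD libraries and 10656 and 11055 CPM in knockout control libraries, beside 6864 and 5865 CPM in wild-type MCD and 6719 and 6722 CPM in wild-type control libraries. The knockout MCD libraries were thus near the wild-type libraries on either diet, and the knockout control libraries were the ones that differed. The median of the list in wild-type cells was -0.15.

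Ribosomal protein genes moved alike. Of 84 tested, 83 were lower and 1 was higher in knockout MCD cells (median -1.12). Without overlap 74 were lower, against 18.1% of all genes in that direction. They summed to 5911 and 5790 CPM in knockout MCD libraries and to 11027 and 13431 CPM in knockout control libraries, beside 5826 to 8124 CPM in wild-type libraries. None passed in 12 libraries and 4 passed in 8, where 0.222% of all genes were called lower. Among the 4 was Rpl4, at 701 and 590 CPM in knockout MCD against 1305 and 1531 CPM in knockout control libraries (adjusted p = 0.0127). The translation elongation factor Eef1a1 read 1245 and 1131 CPM in knockout MCD against 2225 and 2417 CPM in knockout control libraries (adjusted p = 0.00976 in 8). Many ribosomal protein genes have processed copies in the genome, and the counting could split reads among them.

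**Figure D4:**
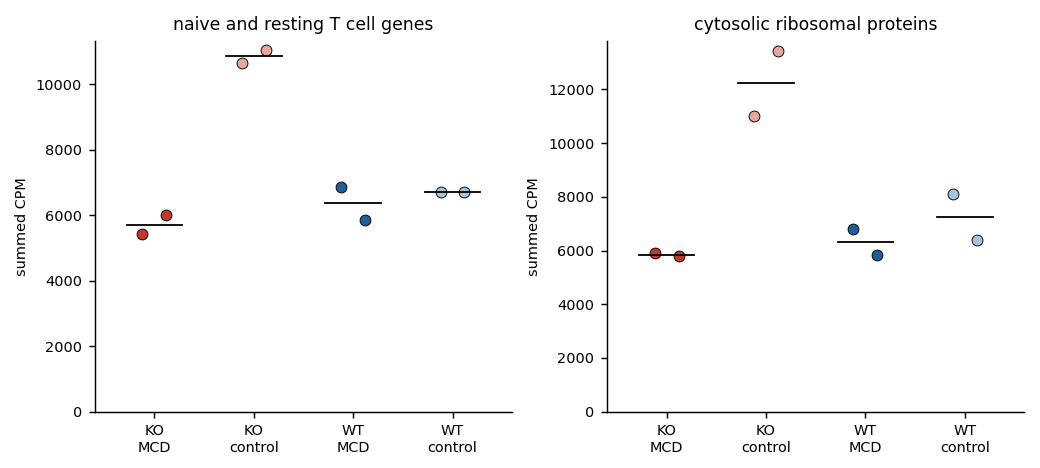
Summed CPM of the naive and resting T cell genes and of the ribosomal protein genes in each library, with points for libraries and a bar for the group mean. In both panels the knockout control libraries are the highest of the 8, and the knockout MCD libraries lie in or near the range of the wild-type libraries.

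Transcript length moved with the comparison to a small extent. Among 8222 protein-coding genes, the 2058 of shortest exonic length (374 to 3332 bases) had a median log2 fold change of -0.15 in knockout cells and the 2056 longest (7514 to 123179 bases) one of 0.07. Without ribosomal protein genes these medians were -0.11 and 0.07. In wild-type cells they were -0.05 and 0.04. The part of length or RNA quality in the results was not tested.

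Other mitochondrial RNAs were mixed. The small ribosomal RNA mt-Rnr1 read 135806 and 119034 CPM in knockout MCD and 197557 and 202680 CPM in knockout control libraries (adjusted p = 0.00976 in the fit of 8). Of 13 mitochondrial mRNAs, 6 were higher and 7 lower (median -0.25, or 0.06 with library-size scaling), and mt-Co1, a subunit of cytochrome oxidase, was the only one past the fit of 8, at 11373 and 12164 CPM in knockout MCD against 18894 and 16441 CPM in knockout control libraries (adjusted p = 0.0125). Nuclear genes of oxidative phosphorylation were lower in 30 of 42 (median -0.34, or -0.038 with library-size scaling), in wild-type cells also in 30 of 42 (median -0.27), and none passed in either fit.

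Metabolic and stress lists showed little shared direction. The genes of methionine, choline and polyamine metabolism, the nutrients the diet lacks, were higher in 15 and lower in 11 of 26 (median 0.40, or -0.34 without knockout MCD replicate 1). One of them passed, in the fit of 8: Slc44a2, a choline transporter, at 167 and 139 CPM in knockout MCD and 300 and 363 CPM in knockout control libraries (adjusted p = 0.0481). Proliferation genes were split 16 to 16 (median 0.00), interferon-induced genes 11 higher to 17 lower (median -0.14), and genes of the unfolded protein response 9 to 11 (median -0.08). With library-size scaling the last 2 medians were 0.13 and 0.22. Apoptosis and survival genes were higher in 18 of 26 (median 0.51, 0.32 to 0.82 over the alternatives), with Casp1, the inflammasome protease, past the fit of 8 at 81.7 and 109 CPM in knockout MCD against 14.7 and 21.5 CPM in knockout control libraries (adjusted p = 0.0301).

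Wild-type CD4+ libraries share no sample with the knockout groups, but their spread entered the fit that ranked the knockout genes. Genes with close wild-type replicates were thus favoured, and the wild-type counts without overlap are descriptions. No gene passed in wild-type cells by edgeR in 12 libraries, and DESeq2 called 40. At an unadjusted edgeR p under 0.05 there were 346, where 811 are given by chance. Of the 15 higher genes with the smallest p in the knockout, 12 were higher in wild-type MCD cells as well, and of the 15 lower ones 11 were lower, where 50.1% of 9293 genes with at least 5 CPM in the knockout were higher and 49.8% lower (49.7% and 49% of all genes tested). Without overlap between wild-type libraries, 10 of the 15 were higher and 6 of the 15 lower, against 16.7% and 17.2% of all genes. The medians differed in size, at 2.72 in the knockout and 0.56 in wild-type cells for the higher genes, and -1.19 and -0.15 for the lower ones. The wider sets were closer to all genes. Of 370 genes higher in the knockout at an unadjusted p under 0.05 and 5 CPM, 60.3% were higher in wild-type MCD cells (median 0.18), and of 269 lower ones 65.1% were lower (median -0.14). The 30 genes were ranked in the knockout, which favours larger medians there. The part of the ranking in the difference between genotypes was not tested.

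**Figure D5:**
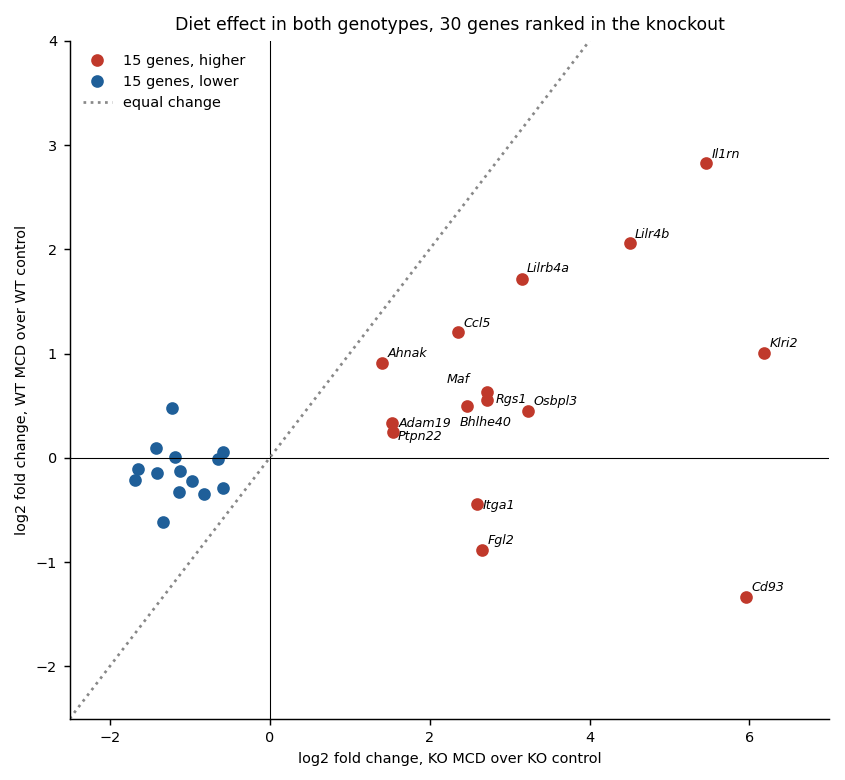
Log2 fold change of 30 genes in knockout cells (horizontal, MCD over control) and in wild-type cells (vertical, MCD over control), with the 15 higher genes in red, the 15 lower genes in blue and a dotted line at equal change. Of the 15 red genes 12 lie above 0 on the vertical axis, and Itga1, Fgl2 and Cd93 lie below it. Spsb1, 1 of the 15 lower genes, lies beyond the left edge and is not drawn. Its values are -6.29 in knockout and -2.06 in wild-type cells.

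The difference between the diet effects was tested as an interaction. No gene passed by edgeR in 12 libraries, while DESeq2 called 71 and limma-voom 1. At an unadjusted edgeR p under 0.05 there were 703, where 811 are given by chance. The smallest adjusted p was 0.299, shared by Fgl2, Ssh2, Slamf7, mt-Rnr2, Cd93 and Rgs1. Fgl2, a secreted suppressor made by regulatory T cells, read 116 and 68.0 CPM in knockout MCD and 11.8 and 17.3 CPM in knockout control libraries, while it read 43.5 and 89.5 CPM in wild-type MCD and 142 and 103 CPM in wild-type control libraries. Ssh2, a phosphatase of actin dynamics, ran the opposite way, at 370 and 359 CPM in knockout MCD and 776 and 918 CPM in knockout control libraries, and at 602 and 525 CPM in wild-type MCD and 425 and 383 CPM in wild-type control libraries. In these genes the diets did not overlap in either genotype and the order was turned round, but the interaction did not pass the adjustment.

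Markers of other cells differed in direction. B and plasma cell markers, 6 higher and 8 lower of 14, summed to 272.5 and 337.4 CPM in knockout MCD libraries and 553.8 and 690.1 CPM in knockout control libraries, and Ighm, the immunoglobulin μ constant gene, was lower in the fit of 8, at 228 and 243 CPM in knockout MCD against 476 and 576 CPM in knockout control libraries (adjusted p = 0.0481). Hepatocyte markers summed to 61.2 and 66.1 CPM in knockout MCD against 116 and 145 CPM in knockout control libraries, macrophage markers to 63.9 and 38.3 CPM in knockout MCD against 60.2 and 35.3 CPM in knockout control libraries, and dendritic cell and MHC class II genes to 123 and 205 CPM in knockout MCD against 157 and 128 CPM in knockout control libraries. Neutrophil and monocyte markers, 9 higher and 1 lower of 11, summed to 138.5 and 41.0 CPM in knockout MCD libraries. In knockout control libraries they summed to 42.4 and 49.7 CPM, so the high sum was that of knockout MCD replicate 1. Most of each sum was Ccr2, given above among the innate-like and cytotoxic genes. It read 124 and 34.3 CPM in knockout MCD and 38.03 and 37.2 CPM in knockout control libraries. Of the 11 markers, 7 had at most 3 counts in a knockout group, so the counts by direction are descriptions. The part of myeloid RNA in these sums was not tested. In wild-type cells B cell markers summed to 321 and 226 CPM with MCD feeding and 315 and 384 CPM with control feeding. By the same diets, hepatocyte markers summed to 40.8 and 68.0 CPM and to 104 and 56.5 CPM. In both sums, and in no other given here, the knockout control libraries were the highest of the 8. Ighm, at 204 to 309 CPM in wild-type cells, was most of the B cell sums. Ass1 was most of the knockout hepatocyte sums (36.3 and 49.0 CPM with MCD, 69.0 and 106 CPM with control feeding). The part of B cell RNA in the lower levels of other genes was not tested.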

How the data were processed

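RNA of sorted T cells was sequenced. The tools named, per the submitters' processing notes, are STAR, featureCounts, bcl2fastq and DESeq2, without versions, and the build is mm10 (GRCm38). The authors deposited raw counts for 52459 genes and FPKM values, which the authors derived per gene length and depth and which served only as an alternative here. Whether counting used strand is not given in the sources used here. Genes were kept by filterByExpr (minimum count 10, minimum total 15), leaving 16218. All 12 libraries (6 groups of 2) were fitted with 1 coefficient per group in edgeR 4.0.16 under R 4.3.3 (TMM, quasi-likelihood, 2-sided, Benjamini-Hochberg, threshold 0.05, prior count 2). CPM values were TMM-scaled. Interactions came from the same fit. Non-overlap means that both libraries of a group lie on one side of both of the other. A floor of 3 counts per library was 0.138 to 0.146 CPM in the knockout libraries, and floors and intervals cover counting error only. Gene positions came from GENCODE vM21. Named genes were all those past the threshold, the 15 higher and 15 lower with the smallest p (no overlap, at least 5 CPM), up to 8 per list, the 6 smallest interaction p and markers, with exceptions stated. Members, lists and tests were chosen with earlier results of these data known. Alternatives used DESeq2 1.42.0 and limma 3.58.1. The test was tried on simulated data, where it missed most changed genes, made false calls above the nominal rate (in the fit of 12 libraries as many as the calls it made on the real ones) and often gave the smallest changes the wrong sign, a criterion then relaxed for them. Some genes that the rule names are left out of the text.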

Additional observations from a re-analysis of the deposited data

Results flagged for a closer look

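mt-Rnr2, the large mitochondrial ribosomal RNA, had a diet effect that differed between genotypes by a test of the difference itself, in the fit of the 8 CD4+ libraries (interaction log2 -0.65, edgeR adjusted p = 0.00301). The knockout MCD libraries had 212184 and 199932 CPM and the knockout control libraries 320251 and 298387 CPM, while wild-type libraries had 205597 and 195882 CPM with MCD feeding and 199242 and 186588 CPM with control feeding. In the fit of 12 libraries the same interaction had adjusted p = 0.299.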

How the results depend on the processing

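Of 16218 genes, 6 passed in the knockout comparison. The count was 10 with library-size scaling, which moved the median of all genes to 0.32, 266 with DESeq2, 19 with limma-voom (2 of the 6 among them), 105 without a filter, 3 at a mean of at least 50 counts, 89 with CD4+ libraries only and 15 on log2(FPKM + 1). Fits without 1 library gave 0 to 42 genes. Leaving 1 library out of the fit of CD4+ libraries, a check chosen after seeing the data, gave 7 to 69 (7, 12, 40 and 34 without knockout MCD replicates 1 and 2 and knockout control replicates 1 and 2). In wild-type cells DESeq2 called 40 and the fit without a filter 19, against 0. The interaction gave 71 with DESeq2, 44 without a filter, 1 with limma-voom, 1 with CD4+ libraries only, and 0 to 1 without 1 library. Pairing by replicate number was checked once, between replicate 1 of the knockout MCD and knockout control groups. Their deviations from the group means had r = -0.02 over 7515 genes. Other groups were not checked, and a shared batch was not tested. A replicate block gave 7 genes for the knockout comparison and 1 for the interaction. With library-size scaling the log2 fold changes of Cd3e, Cd4, Foxp3 and Gata3 were 0.0077, 0.033, 0.27 and 0.021. Without 1 library, Ccr2 ran from -0.13 to 1.72, Cd4 from -0.56 to 0.060, Cd8a from -0.54 to 3.32, Foxp3 from -0.22 to 0.14, Klrb1c from -2.71 to 3.18, Klrc1 from -0.15 to 2.91, Tbx21 from -0.30 to 0.92, Tcrg-C1 from -2.10 to 2.83 and Zbtb16 from -4.84 to 2.44. Zbtb16 was -2.18 with limma-voom, -0.11 on log2(FPKM + 0.1) and -0.93 with the replicate block. Causes were not tested. With 2 libraries a group, a p that misses the threshold does not show equal levels.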

Other observations

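Gcg, the glucagon precursor gene, chosen after its values were seen, read 34.6 and 27.7 CPM in knockout MCD libraries and 0 in both knockout control libraries, and 0.0491 and 1.62 CPM in wild-type MCD and 0 in both wild-type control libraries (edgeR adjusted p = 0.0418 in the fit of 8 libraries and 0.349 in that of 12). Spsb1, an adaptor of ubiquitin ligases, was the reverse, at 0.323 and 0.276 CPM in knockout MCD and 26.7 and 36.0 CPM in knockout control libraries, and 1.28 and 1.71 CPM in wild-type MCD against 6.76 and 6.37 CPM in wild-type control libraries (adjusted p = 0.00976 in the fit of 8). Of the 55 genes higher in the fit of 8, 46 were higher in wild-type MCD cells, 32 of them without overlap, and of the 34 lower, 24 were lower there, 13 of them without overlap. Of all genes tested, 49.7% were higher and 49% lower in wild-type MCD cells, 16.7% and 17.2% without overlap. The wild-type spread entered the fit that called these genes, so the counts without overlap are descriptions.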
